A study of Mus musculus with 12 samples.

Results

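The genes described here are 10 fibrillar matrix and mesenchymal genes, Fn1, Mmp2, Col1a1, Col1a2, Col3a1, Col6a1, Col6a2, Col6a3, Sparc and Vim, out of 22180 genes named on the array. They were chosen by name. Each was read through every probe set whose annotation gives exactly 1 symbol, which came to 13 of 41345 probe sets. Col1a2, Col6a1 and Vim had 2 such probe sets each, and 1 further probe set that names Col6a1 together with other genes was left out.

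The source was MLE12, an epithelial line of the mouse distal lung that carries SV40 large T antigen, and its RNA was measured on 12 Affymetrix arrays in 4 groups of 3. All cells were infected for 12 hours at 60% confluency with lentivirus carrying a pLKO.1 shRNA plasmid and collected 65 hours later. The groups received a shRNA against the long noncoding RNA NANCI, a scrambled shRNA run with it, a shRNA against the RNA named LL34, or a second batch of scrambled shRNA run with that one. The labels name 1 shRNA treatment per target and 1 cell line, call the replicates biological and do not tell whether infections were separate, and the p-values cover only array-to-array spread, which may be technical.

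Fibrillar collagens I and III form the tensile fibres of connective tissue, and collagen VI forms beaded filaments that link those fibres to cells. Fibronectin is laid down by cells through integrins and serves as a scaffold on which collagen assembles, SPARC is a secreted protein that binds collagen, and MMP-2 is a secreted protease that cleaves gelatin and basement membrane collagen. Vimentin is the intermediate filament protein of mesenchymal cells, and it is also made by many epithelial cells grown in culture. In the lung these genes are mainly read as fibroblast genes, and their rise in epithelial cells is a common measure of epithelial to mesenchymal transition.

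Promoter sequences are given for Vim, the member that fell after both shRNAs, and for Col6a1 and Col6a2, the 2 neighbouring type VI collagen genes of which Col6a1 fell after LL34 shRNA while Col6a2 missed the threshold. They are the 250 bases before the RefSeq gene start on build GRCm38.p6, printed 5′ to 3′ on the gene's strand, with matches to 4 short motifs in capitals. RefSeq promoters were matched for 7 of the 10 genes, without Fn1, Mmp2 and Col1a1. The gene table lists no protein-coding gene between Col6a1 and Col6a2.
Vim, chr2:13574061-13574310, plus strand: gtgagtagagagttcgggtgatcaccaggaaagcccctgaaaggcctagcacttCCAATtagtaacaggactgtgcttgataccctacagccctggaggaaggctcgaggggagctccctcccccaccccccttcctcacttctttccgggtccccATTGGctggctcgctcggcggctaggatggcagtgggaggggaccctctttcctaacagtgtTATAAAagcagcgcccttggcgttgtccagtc
Col6a1, chr10:76726045-76726294, minus strand: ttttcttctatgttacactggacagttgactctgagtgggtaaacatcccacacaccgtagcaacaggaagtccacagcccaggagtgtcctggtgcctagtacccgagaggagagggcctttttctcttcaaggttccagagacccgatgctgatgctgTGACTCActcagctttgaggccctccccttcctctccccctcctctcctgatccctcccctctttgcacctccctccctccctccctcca
Col6a2, chr10:76623631-76623880, minus strand: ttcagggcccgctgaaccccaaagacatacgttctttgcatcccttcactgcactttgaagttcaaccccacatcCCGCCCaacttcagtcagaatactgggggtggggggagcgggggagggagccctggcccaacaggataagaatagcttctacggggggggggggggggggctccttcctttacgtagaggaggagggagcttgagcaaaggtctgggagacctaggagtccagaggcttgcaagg
The motifs were searched on both strands. The TATA box was TATAAA. The CCAAT box was searched by the letters of its name. The GC box was spelled GGGCGG. The AP-1 site was spelled TGANTCA. No match in these windows overlapped another. The Vim window held a TATA box 32 to 27 bases before the start and CCAAT boxes whose first bases lay 196 and 94 bases before it. The Col6a1 window held 1 AP-1 site, 90 to 84 bases before the start, and none of the other 3 motifs. The Col6a2 window held 1 GC box on the opposite strand, 175 to 170 bases before the start. A further RefSeq start of Col6a2, away from the gene start, has a window not printed here. That window held GC boxes on the opposite strand with first bases 67, 15 and 11 bases before its start. Of 32851 windows of the same length, 12.4% held the TATA box, 33.8% the CCAAT box, 32.7% the GC box and 6.75% the AP-1 site. A match describes these letters only.

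Values are the authors' log2 signals. The 6 NANCI arrays had medians of 6.84 to 6.88 and the 6 LL34 arrays medians of 6.54 to 6.61, a gap for which the labels give no reason. The sets may have been normalised separately, so tests were made within a set and levels of the 2 sets are given side by side without a test. Each array's mean correlation with its own group ran from 0.988 to 0.997, lowest for LL34_control replicate 3. Sfta3-ps, for which Nanci is a synonym in the gene table, stood at 13.3% of its scrambled level after NANCI shRNA (log2 change −2.91, SE 0.121, limma adjusted p = 1.72e-07), and Nkx2-1, the lung transcription factor gene beside it, at 50.1%. After LL34 shRNA both were also lower. Sfta3-ps stood at 62.6% (log2 change −0.67, limma adjusted p = 0.00284) and Nkx2-1 at 83.2% (log2 change −0.27, limma adjusted p = 0.0327). No table used here carries the name LL34, so that target was not analysed here. A probe set was called when its Benjamini-Hochberg adjusted p over all 41345 probe sets was under 0.05.

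Lung epithelial markers read on both sides of the array median. Of 17 lung epithelial markers, 9 read above the array median on all 12 arrays, among them Nkx2-1, Cdh1, Krt8, Sftpc and Sftpb. Another 5 (Cldn18, Elf3, Sftpd, Lamp3 and Slc34a2) read below it on all arrays. Epcam, Grhl2 and Krt18 read above it on 1, 3 and 4 of the 12 arrays. Of 16 fibroblast markers, 4 (Dcn, Prrx1, Thy1 and Twist2) read above the array median on every array, while 8, among them Pdgfra, Lum, Postn and Tcf21, read below it on every array. The files hold no detection calls, and probe sets differ in brightness, so a place above or below the median does not rank genes.

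After NANCI shRNA 2 of the 13 member probe sets passed the threshold, Fn1 and Vim, both lower, where 19.9% of all probe sets passed, 10.3% higher and 9.6% lower. After LL34 shRNA 4 of 13 passed, with Mmp2, Col6a1 and Vim lower and Fn1 higher, where 16.4% of all probe sets passed, 9.7% higher and 6.66% lower. That last split depends on scaling: 4011 probe sets rose and 2755 fell as deposited, against 3307 and 3463 when all arrays were quantile-normalised together. Subtracting array medians gave 3062 and 3035. The shRNA arrays all lay on 1 side of the scrambled arrays in 5 of 13 member probe sets for NANCI, beside 33% of all probe sets, and in 7 of 13 for LL34, beside 31%. The median change of the 13 was −0.09 after NANCI shRNA and −0.07 after LL34 shRNA, beside 0.01 and 0.00 over all probe sets. With 13 probe sets, the member counts lie within a few probe sets of those shares, so the results below concern single genes.

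**Figure D1:**
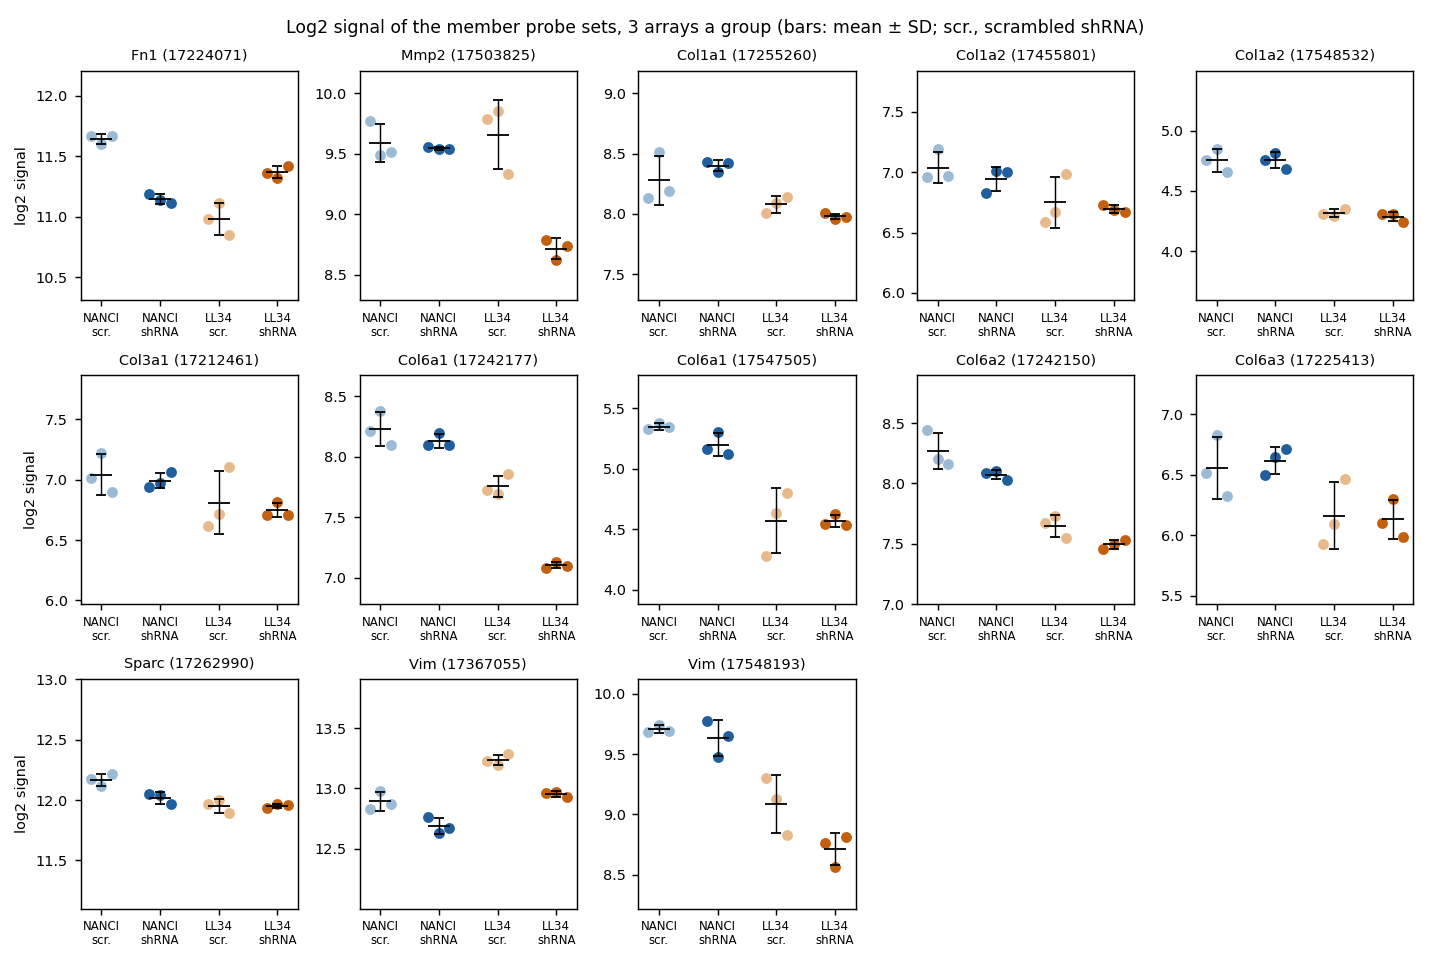
Log2 signal of the 13 member probe sets (vertical axes, each spanning the same number of log2 units) on 12 arrays in 4 groups (horizontal axes); points are arrays and bars the mean ± SD of 3 arrays. The 3 LL34 shRNA arrays sit below all other arrays for Mmp2 and for Col6a1 probe set 17242177. By narrow gaps they also do so for Col1a1, Col6a2 and Vim probe set 17548193. Fn1 separates all 4 groups on this scale, as deposited.

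Fibronectin RNA moved in opposite directions. On probe set 17224071 the NANCI scrambled arrays read 11.67, 11.60 and 11.67, and the NANCI shRNA arrays read 11.19, 11.14 and 11.11. The LL34 scrambled arrays read 10.98, 11.11 and 10.85, and the LL34 shRNA arrays read 11.36, 11.32 and 11.42. Within each set the shRNA and scrambled arrays did not overlap, with the shRNA arrays lower in the NANCI set and higher in the LL34 set. Fn1 fell by 0.50 on the log2 scale after NANCI shRNA (SE 0.0687, limma adjusted p = 0.000318), to 70.8% of the scrambled level. It rose by 0.38 after LL34 shRNA (SE 0.0687, limma adjusted p = 0.00281), to 131%. The 2 changes differed by −0.88 (95% interval −1.10 to −0.67, limma adjusted p = 8.64e-05), in a comparison in which 18.8% of all probe sets passed.

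The scrambled groups themselves read 11.64 ± 0.0398 and 10.98 ± 0.132 for Fn1 as deposited (SD, 3 arrays each), and stood 4.78 and 4.42 above their array medians, so the gap between them depends on the scale. As deposited, the order from low to high was LL34 scrambled, NANCI shRNA, LL34 shRNA and NANCI scrambled, with no overlap between neighbours. With each array's median subtracted, NANCI shRNA came lowest and overlapped with LL34 scrambled, and LL34 shRNA overlapped with NANCI scrambled at the top. Against all 6 scrambled arrays as 1 control group both Fn1 calls were lost, with changes of −0.17 (limma adjusted p = 0.53) and 0.05 (limma adjusted p = 0.844). That comparison brings the gap between the sets into the changes, and it moved the median of all probe sets to 0.13 for NANCI and −0.11 for LL34.

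Genes whose array pattern was most like that of Fn1 were sought among 20599 named probe sets outside the members, on values centred on the mean of each set, over 12 arrays that share their groups and sets. Pan2 (r = 0.990), Mknk1 (r = 0.989) and Myct1 (r = 0.988) came first. Pan2, a subunit of a poly(A) nuclease, measured −0.81 after NANCI shRNA and 0.55 after LL34 shRNA. Mknk1, a kinase of the translation factor eIF4E, measured −0.9999 and 0.87, and Myct1 measured −2.05 and 1.35. These correlations describe the arrays and carry no test.

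The main fibronectin receptor is integrin α5β1. Its α chain gene Itga5, picked for this role after its values were seen, fell by 0.57 after NANCI shRNA (SE 0.118, limma adjusted p = 0.0052) and rose by 0.63 after LL34 shRNA (SE 0.118, limma adjusted p = 0.00396). Against all 6 scrambled arrays neither Itga5 call held, at −0.28 (limma adjusted p = 0.287) and 0.35 (limma adjusted p = 0.204). Itgb1, the β chain, likewise picked afterwards, measured −0.02 (limma adjusted p = 0.912) and 0.10 (limma adjusted p = 0.379).

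Mmp2 RNA was lower after LL34 shRNA and measured close to its control after NANCI shRNA. On probe set 17503825 the LL34 shRNA arrays read 8.78, 8.62 and 8.74, and their scrambled arrays read 9.79, 9.86 and 9.33. The NANCI shRNA arrays read 9.56, 9.54 and 9.54, and their scrambled arrays read 9.77, 9.49 and 9.52. The LL34 shRNA arrays lay below all others, and the other 3 groups overlapped with their neighbours in level, also with array medians subtracted. Mmp2 fell by 0.95 after LL34 shRNA (SE 0.126, limma adjusted p = 0.000453), to 51.9% of the scrambled level. After NANCI shRNA it measured −0.05 (95% interval −0.33 to 0.23, limma adjusted p = 0.883). The difference between the 2 changes was 0.90 (95% interval 0.50 to 1.29, limma adjusted p = 0.00423).

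LL34_control replicate 3 read lowest of its group for Mmp2, and without that array the fall was 1.11, still past the threshold (limma adjusted p = 3.02e-05). Over all other alternatives tried for this change the Mmp2 value ran from −1.05 to −0.85, with a limma adjusted p of at most 0.0119. Genes that work with MMP-2 were picked for their roles after their values were seen. Mmp14, the membrane protease that activates pro-MMP-2, measured −0.03 after NANCI shRNA (limma adjusted p = 0.9) and 0.19 after LL34 shRNA (limma adjusted p = 0.167). Timp2, an inhibitor that also bridges MMP-14 and pro-MMP-2, measured −0.20 (limma adjusted p = 0.0195) and −0.14 (limma adjusted p = 0.104). Its NANCI call did not hold when NANCI_shRNA replicate 1 or 2, or NANCI_control replicate 1 or 3, was removed (−0.19, −0.18, −0.19 and −0.19, with adjusted p from 0.0555 to 0.0671), nor with the 6 NANCI arrays alone (limma adjusted p = 0.0629) or against all 6 scrambled arrays (−0.18, limma adjusted p = 0.0643). With a mean-dependent prior variance its LL34 value passed (limma adjusted p = 0.0278).

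**Figure D2:**
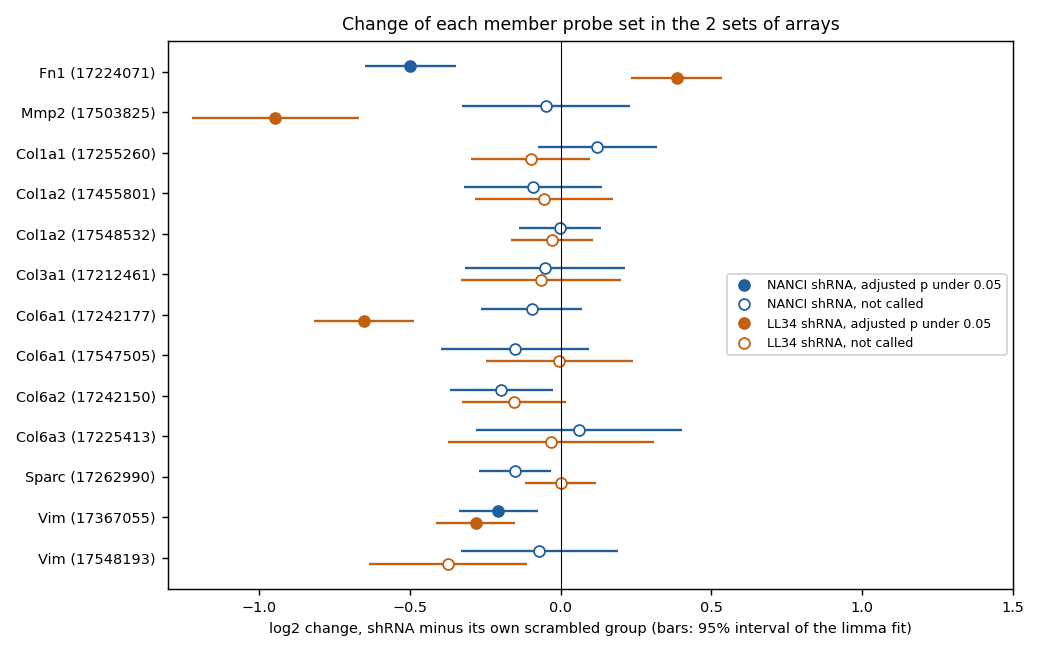
Log2 change of each member probe set (rows), shRNA minus its own scrambled group, with the 95% interval of the limma fit; filled points have an adjusted p under 0.05. Fn1 lies on opposite sides of 0 in the 2 sets, Mmp2 and Col6a1 (17242177) are called in the LL34 set, and Vim (17367055) is called in both.

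Of the collagen VI chains, which assemble as a heterotrimer of α1, α2 and a further chain, Col6a1 fell after LL34 shRNA on its brighter probe set. Probe set 17242177 read 7.72, 7.69 and 7.86 on the LL34 scrambled arrays and 7.08, 7.13 and 7.10 on the LL34 shRNA arrays. In the NANCI set it read 8.21, 8.38 and 8.10 on scrambled and 8.10, 8.20 and 8.10 on shRNA arrays. The groups did not overlap in the LL34 set and overlapped in the NANCI set. The change was −0.65 after LL34 shRNA (SE 0.0758, limma adjusted p = 0.000191), which left 63.7% of the scrambled level, and −0.10 after NANCI shRNA (95% interval −0.26 to 0.07, limma adjusted p = 0.497). The 2 changes differed by 0.56 (95% interval 0.32 to 0.79, limma adjusted p = 0.00354).

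The other Col6a1 probe set, 17547505, went another way. It read below the array median on all 12 arrays, at 4.54, 4.62 and 4.53 after LL34 shRNA and at 4.28, 4.63 and 4.80 with the scrambled shRNA. Its LL34 groups overlapped, with a change of 0.00 (95% interval −0.25 to 0.24, limma adjusted p = 0.989). After NANCI shRNA it measured −0.15 (95% interval −0.39 to 0.09, limma adjusted p = 0.452). The fall of Col6a1 therefore rests on 1 of its 2 probe sets.

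Col6a2, the α2 chain gene whose promoter window is printed beside that of Col6a1, read lower on the shRNA arrays of both sets without passing the threshold. Probe set 17242150 read 8.44, 8.21 and 8.16 with the NANCI scrambled shRNA and 8.09, 8.11 and 8.03 with NANCI shRNA. In the LL34 set it read 7.67, 7.73 and 7.55 on scrambled and 7.46, 7.50 and 7.53 on shRNA arrays. Neither pair of groups overlapped, the gap in the LL34 set being the narrower. The changes were −0.20 (95% interval −0.37 to −0.02, limma adjusted p = 0.116) and −0.15 (95% interval −0.33 to 0.02, limma adjusted p = 0.241). After quantile normalisation over all arrays the LL34 change was −0.23 and passed (limma adjusted p = 0.0459). Whether Col6a1 and Col6a2 differed in their change after LL34 shRNA was not tested.

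Col6a3, the gene of the α3 chain, read below the array median on all 12 arrays. Probe set 17225413 lay between 6.33 and 6.83 in the NANCI set and between 5.93 and 6.47 in the LL34 set, and shRNA and scrambled arrays overlapped in both. Its changes were 0.06 (95% interval −0.28 to 0.40, limma adjusted p = 0.873) and −0.03 (95% interval −0.37 to 0.31, limma adjusted p = 0.931). The remaining collagen VI genes Col6a4, Col6a5 and Col6a6 gave 0 calls of 3 after either shRNA by limma, and 0 at an unadjusted p under 0.05.

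No probe set of the fibrillar collagens I and III passed the limma threshold after either shRNA, and 0 had an unadjusted p under 0.05. Col1a1, the α1 chain of collagen I, read 8.13, 8.51 and 8.19 on NANCI scrambled and 8.43, 8.35 and 8.42 on NANCI shRNA arrays, and these groups overlapped. In the LL34 set it read 8.01, 8.09 and 8.14 on scrambled and 8.01, 7.96 and 7.98 on shRNA arrays, where the shRNA arrays lay just below the scrambled ones. Its changes were 0.12 (95% interval −0.07 to 0.32, limma adjusted p = 0.451) and −0.10 (95% interval −0.30 to 0.10, limma adjusted p = 0.56). Without NANCI_control replicate 2, the highest of its group, the first value was 0.24 and passed (limma adjusted p = 0.0231), and the difference between the 2 changes went from 0.22 (limma adjusted p = 0.301) to 0.34 (limma adjusted p = 0.0183).

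Col1a2 and Col3a1 read close to the middle of the arrays. Over all arrays Col1a2 probe set 17455801 ran from 6.59 to 7.19 and stood above the array median on 11 of 12 arrays. Its second probe set, 17548532, ran from 4.24 to 4.85 and stood below it on all 12. For Col1a2 the changes on the 2 probe sets were −0.09 and 0.00 after NANCI shRNA and −0.05 and −0.03 after LL34 shRNA, with limma adjusted p from 0.668 to 0.992. Col3a1, the chain of collagen III, ran from 6.61 to 7.22 on probe set 17212461, with group means 0.13 to 0.25 above the array medians. It measured −0.05 (95% interval −0.32 to 0.21) and −0.07 (95% interval −0.33 to 0.20). In these genes LL34_control replicate 3 was the highest of its group, at 6.99 for Col1a2 (17455801) and 7.10 for Col3a1. A pair of LL34 shRNA arrays had exactly the same Col3a1 value, so the spread of that group may be understated.

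Sparc RNA read lower on the NANCI shRNA arrays without passing the threshold. Probe set 17262990 read 12.18, 12.11 and 12.21 on NANCI scrambled arrays and 12.05, 12.04 and 11.96 on NANCI shRNA arrays, which did not overlap. In the LL34 set it read 11.97, 12.00 and 11.89 on scrambled and 11.94, 11.96 and 11.96 on shRNA arrays, which did. The changes were −0.15 (95% interval −0.27 to −0.03, limma adjusted p = 0.0773) and 0.00 (95% interval −0.12 to 0.12, limma adjusted p = 0.994). The first passed after quantile normalisation over all arrays (−0.21, limma adjusted p = 0.00817), with array weights (−0.16, limma adjusted p = 0.0324), with a mean-dependent prior variance (limma adjusted p = 0.0229) and with dim probe sets, those under the median level, left out (limma adjusted p = 0.0393). The difference between the 2 Sparc changes was −0.15 (95% interval −0.32 to 0.02, limma adjusted p = 0.226).

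Vimentin RNA fell modestly after both shRNAs on its brighter probe set. Probe set 17367055 read 12.83, 12.98 and 12.87 on NANCI scrambled arrays and 12.76, 12.63 and 12.67 on NANCI shRNA arrays. In the LL34 set it read 13.23, 13.20 and 13.28 on scrambled and 12.96, 12.97 and 12.93 on shRNA arrays. From low to high the groups were NANCI shRNA, NANCI scrambled, LL34 shRNA and LL34 scrambled. The middle groups overlapped as deposited and did not with array medians subtracted, while shRNA and scrambled arrays did not overlap in either set. Vim fell by 0.21 after NANCI shRNA (SE 0.0589, limma adjusted p = 0.0294) and by 0.28 after LL34 shRNA (SE 0.0589, limma adjusted p = 0.00719). These changes left 86.7% and 82.3% of the scrambled level. The difference between them was 0.08 (95% interval −0.11 to 0.26, limma adjusted p = 0.639).

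The Vim call after NANCI shRNA was the least stable of the 6 member calls. It was lost without NANCI_shRNA replicate 2 (−0.18, limma adjusted p = 0.106) or 3 (−0.20, limma adjusted p = 0.0801) and without NANCI_control replicate 2 (−0.16, limma adjusted p = 0.105) or 3 (−0.22, limma adjusted p = 0.0615). It was also lost in a fit of the 6 NANCI arrays alone (limma adjusted p = 0.101). Against all 6 scrambled arrays it was −0.38 and passed (limma adjusted p = 0.00672), while the LL34 value became −0.11 and missed (limma adjusted p = 0.47).

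The dimmer Vim probe set, 17548193, gave other values. It read 9.68, 9.74 and 9.69 against 9.78, 9.48 and 9.65 in the NANCI set, scrambled first, and these groups overlapped. In the LL34 set it read 9.30, 9.13 and 8.83 on scrambled and 8.76, 8.57 and 8.81 on shRNA arrays, which lay apart by a narrow gap. The changes were −0.07 (95% interval −0.33 to 0.19, limma adjusted p = 0.797) and −0.37 (95% interval −0.63 to −0.11, limma adjusted p = 0.0551). Without LL34_control replicate 3, the lowest of its group, the LL34 value was −0.50 and passed (limma adjusted p = 0.00724). It also passed when all arrays were quantile-normalised together (−0.45, limma adjusted p = 0.0073), with array weights (−0.44, limma adjusted p = 0.00604), with a mean-dependent prior variance (limma adjusted p = 0.0489) and without dim probe sets (limma adjusted p = 0.0309). Against all 6 scrambled arrays it was −0.68 (limma adjusted p = 0.0385).

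The genes most like Vim in array pattern, by the same measure, were Aqp5 (r = 0.968), Lrrc75a (r = 0.963) and F2r (r = 0.961). Aqp5, the water channel of alveolar type 1 and glandular cells, measured −0.60 after NANCI shRNA and −0.61 after LL34 shRNA. Lrrc75a measured −0.73 and −0.96, and F2r, the thrombin receptor PAR1, measured −0.34 and −0.48.

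**Figure D3:**
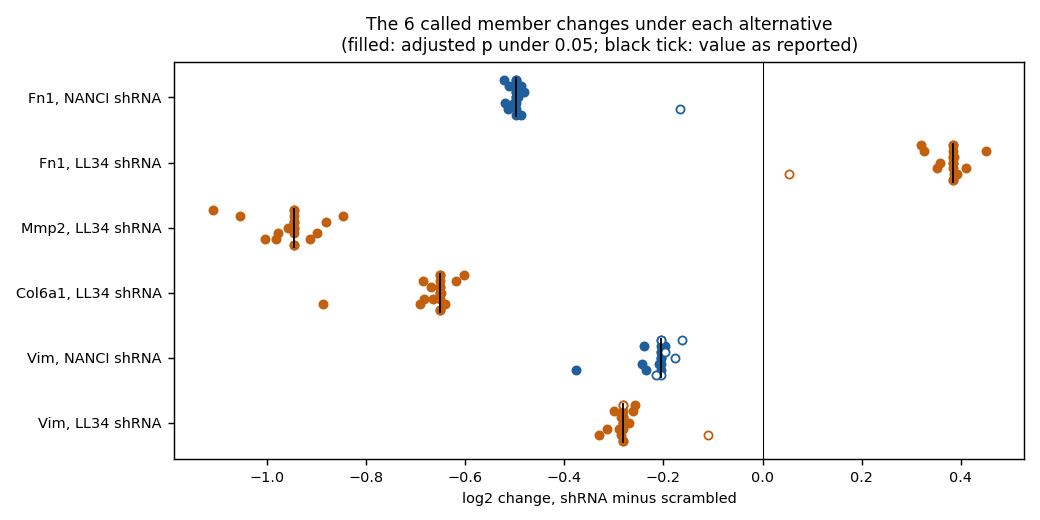
Log2 change of the 6 called member changes (rows) as reported (black tick) and under each alternative analysis (points; filled where the adjusted p was under 0.05). Fn1 moved closest to 0 with all 6 scrambled arrays as 1 control group, at −0.17 and 0.05, and the other Fn1 points stayed filled apart from those 2.

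Around the members, 132 of 140 other matrix genes from 7 lists were measured, each by its brightest probe set. After NANCI shRNA 8 rose and 32 fell, and after LL34 shRNA 9 rose and 32 fell. Over all probe sets 10.3% rose and 9.6% fell after NANCI shRNA, and 9.7% rose and 6.66% fell after LL34 shRNA. Calls are more frequent among bright probe sets: of those at or above the median level, tested alone, 40.7% passed after NANCI shRNA and 34.9% after LL34 shRNA, so the total of these lists is not read as standing above other bright genes. The lists were chosen with earlier results of these data known, and are described by counts and medians.

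Genes that process and crosslink collagen moved in both directions. Of 24 measured, 3 rose and 8 fell after NANCI shRNA (median −0.11), and 5 rose and 6 fell after LL34 shRNA (median −0.02). P3h2, a prolyl 3-hydroxylase, fell by 1.63 after NANCI shRNA (SE 0.0835, limma adjusted p = 5.35e-07) and measured 0.03 after LL34 shRNA. Plod2, the lysyl hydroxylase of telopeptide crosslinks, rose by 1.21 after NANCI shRNA (SE 0.1, limma adjusted p = 9.89e-06) and measured −0.01 after LL34 shRNA. Adamts3, a procollagen N-proteinase, fell by 0.96 and rose by 0.66 (limma adjusted p = 2.05e-05 and 0.000494), a turn of direction like that of Fn1. Neither Adamts3 call held against all 6 scrambled arrays, at −0.50 (limma adjusted p = 0.192) and 0.20 (limma adjusted p = 0.56). Pcolce2, an enhancer of procollagen C-proteinase, fell by 0.91 after LL34 shRNA (limma adjusted p = 1.01e-05) and by 0.26 after NANCI shRNA (limma adjusted p = 0.017). The smaller Pcolce2 fall missed the threshold once NANCI_shRNA replicate 2 or 3, or NANCI_control replicate 3, was removed (−0.24, −0.25 and −0.25, with adjusted p from 0.0508 to 0.0648).

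Further genes of this list were picked for their roles after their values were seen. Serpinh1, the collagen chaperone HSP47, rose by 0.56 after LL34 shRNA (limma adjusted p = 0.00063) and by 0.29 after NANCI shRNA (limma adjusted p = 0.0197). The NANCI value of Serpinh1 missed it once NANCI_shRNA replicate 1 or 2, or NANCI_control replicate 1 or 2, was removed (0.28, 0.30, 0.22 and 0.29, with adjusted p from 0.0506 to 0.0742), and with the 6 NANCI arrays alone (limma adjusted p = 0.0679). Against all 6 scrambled arrays its LL34 value was 0.02 (limma adjusted p = 0.963) and its NANCI value 0.83 (limma adjusted p = 0.0684). Lox, the lysyl oxidase that crosslinks collagen and elastin, fell by 0.84 (limma adjusted p = 6.97e-05) and by 0.42 (limma adjusted p = 0.0107). With all 6 scrambled arrays as control these became −0.25 (limma adjusted p = 0.592) and −1.01 (limma adjusted p = 0.0596). Bmp1, the procollagen C-proteinase, fell by 0.30 after NANCI shRNA (limma adjusted p = 0.00555) and measured −0.04 after LL34 shRNA (limma adjusted p = 0.788). Its fall missed the threshold against all 6 scrambled arrays (−0.24, limma adjusted p = 0.0507).

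Of the other fibrillar collagen genes, types II, V, XI, XXIV and XXVII, 0 of 8 were called by limma after either shRNA and 0 had an unadjusted p under 0.05 (medians 0.00 and −0.09). Proteoglycan and elastic fibre genes were called lower in 8 of 26 cases after NANCI shRNA and in 8 of 26 after LL34 shRNA (medians −0.09 and −0.11). No rise was called after either. Exceptions were 1 rise after NANCI shRNA without NANCI_control replicate 1, and 1 with the replicate numbers fitted as a block. Fbln5, an elastic fibre assembly protein, fell by 1.55 after NANCI shRNA (SE 0.0718, limma adjusted p = 2.82e-07) and measured 0.03 after LL34 shRNA. That fall was lost against all 6 scrambled arrays (−0.83, limma adjusted p = 0.156), where the NANCI and LL34 scrambled groups themselves read 11.37 and 9.93. Dcn, the collagen-binding proteoglycan decorin, fell by 0.91 after NANCI shRNA (limma adjusted p = 8.05e-06) and measured 0.07 after LL34 shRNA. Tnc, the matrix glycoprotein tenascin C, fell by 1.79 and 0.62 (limma adjusted p = 5.86e-06 and 0.00953), the second lost with the pooled controls (−0.37, limma adjusted p = 0.18). Fbln1 fell by 0.89 and 0.47 (limma adjusted p = 5.34e-06 and 0.000702).

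Matrix receptor genes were the list with the highest share of calls here: 4 rose and 10 fell of 25 after NANCI shRNA (median −0.19), and 2 rose and 11 fell after LL34 shRNA (median −0.17). With 1 array left out, the LL34 counts were 1 to 3 rises and 8 to 10 falls, with 1 rise without LL34_shRNA replicate 1 or 2 or LL34_control replicate 3. Itga3, an integrin chain that binds laminin, rose by 0.55 after NANCI shRNA and fell by 1.38 after LL34 shRNA (limma adjusted p = 0.000649 and 3.18e-06). Antxr1, a membrane receptor for collagens, fell by 1.27 after LL34 shRNA (SE 0.0617, limma adjusted p = 9.14e-07), as Col6a1 did, and measured −0.10 after NANCI shRNA. Antxr2, its relative, fell by 0.89 after NANCI shRNA (limma adjusted p = 1.38e-06) and rose by 0.22 after LL34 shRNA (limma adjusted p = 0.0207). Itgb8, an integrin chain that activates TGF-beta, fell by 1.58 and by 0.26 (limma adjusted p = 1.72e-07 and 0.0199).

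Among the calls given for Itga3, Antxr1, Antxr2 and Itgb8 alone, 2 after LL34 shRNA were lost when 1 array was left out. The Antxr2 rise did not pass with LL34_shRNA replicate 1 or 2, or LL34_control replicate 2 or 3, removed (0.20, 0.21, 0.21 and 0.18, with adjusted p from 0.0593 to 0.082), with the 6 LL34 arrays alone (limma adjusted p = 0.067) or with array medians subtracted (0.18, limma adjusted p = 0.0694), and against all 6 scrambled arrays it was 0.01 (limma adjusted p = 0.942). The Itgb8 fall did not pass with LL34_shRNA replicate 1, 2 or 3, or LL34_control replicate 2, removed (−0.25, −0.26, −0.26 and −0.23, with adjusted p from 0.0534 to 0.0734).

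Matrix proteases and their inhibitors were called in 4 of 24 cases after either shRNA, with 1 higher and 3 lower for NANCI and 2 higher and 2 lower for LL34. The 1 NANCI rise became 0 on removing NANCI_shRNA replicate 2 or 3 or NANCI_control replicate 3, and 2 without LL34_control replicate 3. Timp3, a matrix-bound inhibitor, fell by 1.04 and by 0.66 (limma adjusted p = 8.36e-07 and 3.06e-05), the first lost with pooled controls (−0.63, limma adjusted p = 0.068). Mmp13, collagenase 3, rose by 1.37 after LL34 shRNA (SE 0.143, limma adjusted p = 9.25e-05) and measured −0.15 after NANCI shRNA. Reck, a membrane inhibitor of MMP-2, rose by 0.75 after LL34 shRNA (SE 0.1, limma adjusted p = 0.00046). After NANCI shRNA Reck measured 0.15 (limma adjusted p = 0.389), which passed without LL34_control replicate 3 in the shared spread (limma adjusted p = 0.043). Mmp11, stromelysin 3, fell by 0.84 after NANCI shRNA (limma adjusted p = 2.59e-06) and measured 0.10 after LL34 shRNA, while its second probe set measured −0.17 (limma adjusted p = 0.134) and 0.18 (limma adjusted p = 0.117).

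Of 22 mesenchymal transition factors and cytoskeletal genes, 0 rose after either shRNA, 3 fell after NANCI shRNA and 5 fell after LL34 shRNA (medians −0.04 and −0.11). Prrx1, a homeobox factor of mesenchyme, fell by 1.57 after NANCI shRNA and fell by 1.46 after LL34 shRNA (SE 0.081 for both, limma adjusted p = 5.53e-07 and 2.07e-06). Cdh2, N-cadherin, fell by 0.50 and 0.44 (limma adjusted p = 0.00118 and 0.00393), with the second value at −0.33 against all 6 scrambled arrays (limma adjusted p = 0.0515). A second Cdh2 probe set measured −0.36 (limma adjusted p = 0.0525) and −0.42 (limma adjusted p = 0.0313). Of the transition factors Snai1, Snai2, Zeb1, Twist1 and Twist2, 0 were called after either shRNA by limma, and 0 had an unadjusted p under 0.05.

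The intermediate filament gene Nes and the calcium-binding protein gene S100a4 fell after LL34 shRNA by 0.46 and 0.43 (limma adjusted p = 0.0256 and 0.0179). Nes missed the threshold on removing a single LL34_shRNA array, whichever it was, or LL34_control replicate 1 or 2 (values from −0.50 to −0.37, adjusted p from 0.0501 to 0.0958), and with the 6 LL34 arrays alone (limma adjusted p = 0.107). The S100a4 call was lost without LL34_shRNA replicate 3 or LL34_control replicate 2 (−0.38 and −0.34, adjusted p 0.0761 and 0.068) and against all 6 scrambled arrays (−0.32, limma adjusted p = 0.103). After NANCI shRNA Nes measured −0.28 (limma adjusted p = 0.163), which passed without LL34_control replicate 3 in the shared spread (limma adjusted p = 0.0209), and S100a4 measured 0.13 (limma adjusted p = 0.511). The count of 5 falls after LL34 shRNA ran from 2 to 5 with 1 array left out, at 2 or 3 on removing any single LL34_shRNA array or LL34_control replicate 2. The 3 falls after NANCI shRNA ran from 2 to 5, at 5 without LL34_control replicate 3.

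**Figure D4:**
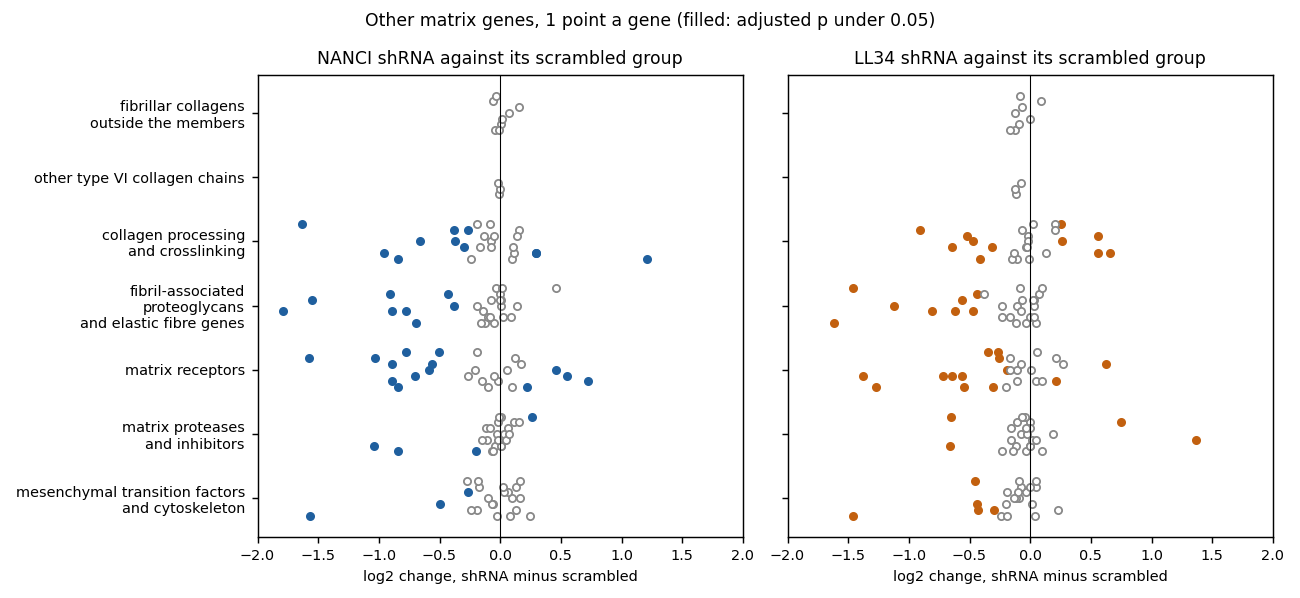
Log2 change of 132 other matrix genes, 1 point per gene, in 7 lists (rows) after NANCI shRNA (left) and LL34 shRNA (right); filled points have an adjusted p under 0.05. The fibrillar collagens outside the members and the other collagen VI chains cluster at 0, and most filled points of the proteoglycan and receptor lists lie to the left.

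Markers of other cell types were read beside these results. All arrays came from the epithelial line MLE12, so a marker signal here does not show that another cell type was present. In bulk RNA fewer cells of a type and less RNA per cell cannot be told apart. Of 16 fibroblast markers, 2 fell after NANCI shRNA (Dcn and Prrx1) and 1 after LL34 shRNA (Prrx1), with no rise; both genes are also in the matrix lists above. The mean log2 signal of the 16 per array ran from 6.89 to 6.97 in NANCI scrambled, 6.76 to 6.79 in NANCI shRNA, 6.62 to 6.65 in LL34 scrambled and 6.49 to 6.53 in LL34 shRNA arrays. These means include the large falls of Dcn and Prrx1. The median change of the 16 was −0.01 after NANCI shRNA and 0.01 after LL34 shRNA, so the lower means do not describe most of the markers. Of 9 smooth muscle and pericyte markers, 0 were called by limma after either shRNA, and 1, Notch3, had an unadjusted p under 0.05 (0.33 after NANCI shRNA, limma adjusted p = 0.0588).

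All 5 genes listed as mesothelial markers fell after LL34 shRNA, with a median of −0.95. Msln measured −0.95, Upk3b −2.46, Wt1 −0.33, Lrrn4 −0.75 and Krt19 −1.15. Krt19 is a keratin gene like Krt7, Krt8 and Krt18 of the epithelial list, so the list is not specific to mesothelium. Of the 5, 4 read above the array median on all 12 arrays. Their mean log2 signal per array ran from 9.62 to 9.79 in LL34 scrambled and from 8.54 to 8.65 in LL34 shRNA arrays. After NANCI shRNA 1 rose (Wt1) and 1 fell (Msln), with a median of 0.07 and means of 9.86 to 9.99 in scrambled and 9.51 to 9.64 in shRNA arrays. The NANCI rise did not pass with NANCI_shRNA replicate 1 or 2, or NANCI_control replicate 2 or 3, removed. Nor did it pass with the 6 NANCI arrays alone or with the replicate numbers fitted as a block, and 2 fell without NANCI_shRNA replicate 2. The 5 LL34 falls became 4 without LL34_shRNA replicate 3 or LL34_control replicate 2, and with the replicate block. Of 17 lung epithelial markers, 1 rose (Foxa2) and 6 fell (Nkx2-1, Cdh1, Krt8, Grhl2, Foxa1 and Abca3) after NANCI shRNA. After LL34 shRNA 2 rose (Epcam and Sftpb) and 5 fell (Nkx2-1, Krt8, Foxa2, Foxa1 and Sftpc). Cdh1, E-cadherin, measured −1.56 after NANCI shRNA (limma adjusted p = 6.92e-07) and −0.24 after LL34 shRNA (limma adjusted p = 0.0816). Grhl2 measured −0.56 (limma adjusted p = 0.000423) and 0.20 (limma adjusted p = 0.128). The LL34 counts ran from 1 to 2 rises and from 3 to 6 falls with 1 array left out, with 3 falls without LL34_shRNA replicate 1 or 3 or LL34_control replicate 2, and 1 rise without LL34_shRNA replicate 1 or 3 or LL34_control replicate 3. Of 8 endothelial markers 1, Tek, fell after each shRNA. Of 7 leukocyte markers 1, Cd68, rose after NANCI shRNA and 0 were called after LL34 shRNA. With quantile normalisation over all arrays, array weights or pooled controls, 1 leukocyte fall was called after LL34 shRNA. The part of these markers in the member results was not tested.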

How the data were processed

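The values are log2 signals per probe set, 1 per array, from 12 arrays made with 100 ng of total RNA each, as deposited by the authors. Per the submitters' processing notes the tools were oligo, RMA and limma. Versions, order and annotation are not given in those notes. The number of arrays sets the precision.

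Gene names came from the annotation of the array platform, where 23521 probe sets had 1 symbol, 1814 several and 16010 none. Tests were made with limma 3.58.1 in R 4.3.3 on all 12 arrays with 4 group means (8 residual and 2.84 prior degrees of freedom), and p-values were adjusted by Benjamini-Hochberg over 41345 probe sets with a threshold of 0.05. A gene of a list was read by its brightest probe set. An exact permutation test of 3 arrays against 3 cannot go below 0.1 and was not used.

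All 10 genes and all their probe sets were named. From each list up to 4 genes with the smallest p in either comparison among called genes were named, and for each member called in both comparisons the 3 genes most like it in array pattern. Genes and lists were chosen with earlier results of these data known. Alternatives were 2 other scalings, a filter on dim probe sets, a mean-dependent robust prior, array weights, a replicate block, each set alone, pooled controls and leaving out each array.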

Additional observations from a re-analysis of the deposited data

Results flagged for a closer look

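The change after NANCI shRNA minus the change after LL34 shRNA passed the threshold for 3 member probe sets, by the limma test of the difference itself with Benjamini-Hochberg adjustment over all probe sets. It was −0.88 for Fn1 (17224071, limma adjusted p = 8.64e-05), 0.90 for Mmp2 (17503825, limma adjusted p = 0.00423) and 0.56 for Col6a1 (17242177, limma adjusted p = 0.00354). With 1 array left out, these ran from −0.95 to −0.82 for Fn1, from 0.80 to 1.06 for Mmp2 and from 0.49 to 0.63 for Col6a1, and each stayed past the threshold. The sets share no control arrays, and shRNA target and set of arrays cannot be told apart. The fourth member called within a set, Vim, had a difference of 0.08 (limma adjusted p = 0.639).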

How the results depend on the processing

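Over 745 values of a member probe set under an alternative, 721 kept their direction where called and their side of the threshold, 10 lost a call, 14 gained one and 0 turned a called direction. Only 2, 4 and 3 of the 13 probe sets were called for NANCI, LL34 and the difference, so most of these values had no call to lose. Leaving out an array of 1 set also cannot move the estimated change of the other set. Mmp2 and Col6a1 (17242177) after LL34 shRNA kept their calls under every alternative tried, from −1.11 to −0.85 and from −0.89 to −0.60. The count of called member probe sets after NANCI shRNA was 1 in place of 2 both when the NANCI arrays were fitted by themselves and with all 6 scrambled arrays as 1 control group. It ran from 1 to 2 with 1 array left out. With pooled controls 4309 in place of 6766 probe sets passed after LL34 shRNA, among them 3 member probe sets; the cause was not tested. With 1 array left out, 6699 to 9551 probe sets passed after NANCI shRNA, 4704 to 6670 after LL34 shRNA and 6519 to 8111 for the difference. Deviations of same-numbered shRNA and scrambled arrays had r from −0.06 to 0.01 among NANCI arrays and from −0.12 to 0.05 among LL34 arrays. Of 6 shRNA arrays, 1 correlated best with its own number. With 3 arrays a group, this check cannot tell whether same-numbered arrays were handled together. With the replicate block 6906, 5257 and 6320 probe sets passed for NANCI, LL34 and the difference, and 1, 3 and 3 member probe sets, Vim (17367055) missing at adjusted p = 0.121 and 0.0527. No background or detection values were used here, so probe sets below the array median have no stated floor.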
